A study of Mus musculus with 12 samples.

Results

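Nuclear genes for subunits of the oxidative phosphorylation machinery were followed across 6 groups of mouse splenic CD4 T cells. Members were chosen by name alone: a symbol beginning with Nduf, Uqcr, Cox4 to Cox8 or Atp5, or Sdha to Sdhd, and at least 120 estimated counts summed over the 12 libraries. Of the 13404 genes of the count table, 63 matched by name, all 63 reached 120 counts, and all 63 passed the low-count filter and were among the 9495 genes tested. The set held 58 subunits and 5 assembly factors, which the name rule also takes in: 26 subunits belonged to complex I, 2 to complex II, 8 to complex III, 8 to complex IV and 14 to complex V. Subunits that the table does not list, among them Sdha, Sdhd, Cox5a and the mitochondrially encoded ones, were not analysed here.

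The electron transport chain sits in the inner mitochondrial membrane. Complexes I and II take electrons from NADH and succinate, complex III passes them to cytochrome c, complex IV reduces oxygen, and complex V, the ATP synthase, uses the resulting proton gradient to make ATP. Most subunits are encoded in the nucleus and a few in mitochondrial DNA. Regulatory T cells (Treg, which restrain immune responses) are known to rely more on mitochondrial respiration than activated conventional CD4 T cells (Tconv), and complexes I and III are known sites at which electrons leak to form reactive oxygen species.

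Cells were sorted by flow cytometry from the spleens of C57BL/6 mice, as CD4+CD25+ Treg and CD4+ Tconv. Mice were wild-type at an age of 2 months (young), wild-type at more than 18 months (aged), or Dcaf1-deficient by their label at 2 months, and each of these gave 2 Treg and 2 Tconv libraries; the cells in which Dcaf1 was deleted are not given by the labels. Dcaf1 (named Vprbp in the table) was at 102 and 101 CPM for the labelled Treg and 132 and 132 CPM for the labelled Tconv, against 144 and 128 for young Treg and 147 and 144 for young Tconv; the lowest library of all was aged Tconv 2 at 90.5 CPM. CPM are library-scaled counts (TMM, the trimmed mean scaling of edgeR), in the usual unit of that name. Gene-level counts cannot tell whether part of the transcript was deleted, and the libraries are therefore named by their label. The study asked how Dcaf1 bears on Treg ageing through reactive oxygen species, which the respiratory chain can produce.

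Libraries held 18358477 to 26852448 estimated counts, and the 63 members together took 0.670% to 0.877% of them. T cell markers summed to 9857 to 11461 CPM in the 6 Tconv libraries and 3357 to 8413 CPM in the 6 Treg libraries. Transcripts of other cells stood apart in some Treg libraries: 9 macrophage markers summed to 140 and 4122 CPM for young Treg 1 and 2, 10116 and 604 for aged Treg 1 and 2, and 11953 and 14862 for those labelled Dcaf1-deficient. In Tconv the same 9 markers summed to 19.4 to 272 CPM in the wild-type libraries and to 1009 and 1077 CPM for the labelled ones, and no marker of this list was at 0 in any library. B cell markers summed to 65.9 and 2353 CPM for young Treg, 1836 and 68.5 for aged Treg and 2131 and 2288 for labelled Treg. In Tconv the B cell sums ran from 17.2 to 243 CPM. Foxp3, the defining factor of Treg, was at 535 to 1986 CPM in the Treg libraries and at 47.7 to 80.8 CPM in young and labelled Tconv, but at 334 and 675 CPM for aged Tconv 1 and 2, while Il2ra, the gene of CD25, was at 576 to 1337 CPM in all Treg libraries and 29.7 to 63.2 CPM in all Tconv libraries. Aged Treg 2 and aged Tconv 2 alone carry the tag L3 in their titles, whose meaning is not stated. The other Treg libraries and young Tconv 1 carry L4, and the other Tconv libraries carry L5. No Treg library carries L5, so cell type and tag are largely bound together. For the labelled libraries, cell type and tag (L4 for Treg, L5 for Tconv) cannot be told apart. Aged Tconv 2 differed from aged Tconv 1 in many members, as described further on. Nothing in the labels says whether replicates came from separate mice, so p-values measure only the spread between these samples. In bulk samples, fewer cells of a type and less RNA per cell cannot be told apart.

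Promoter sequence is shown first for 7 members, chosen after their values were seen: the complex III pair Uqcr11 and Uqcrh, which lay on opposite sides of the comparison of Treg with Tconv, the genes Atp5g2 and Atp5g3 for the same ATP synthase subunit, the assembly factor gene Ndufaf4, and Atp5h and Ndufv3, which were lower in Treg. Of the 7, only Atp5h and Ndufv3 were called by edgeR in the main fit. Ndufb11, also called lower in Treg, is not printed, and its window held no match of the motifs named below. RefSeq windows on GRCm38.p6, from 250 bases before to 50 bases after a start site, matched 52 of the 63 members (58 windows). They were searched on both strands for NRF1 (CGCATGCG), ETS or GABP (CCGGAAGT), YY1 (AAGATGGC), ERR (AAGGTCA) and the GC box (GGGCGG), the letters of factors known to act on nuclear genes for mitochondria; no match of one motif overlapped a match of another. The stretches are written 5′ to 3′ along the gene's strand, end at the start site or at the nearest base upstream of it that GENCODE does not place in an exon, and carry motif matches in capitals. Their positions are Uqcr11 chr10:80406831-80406980 (minus strand), Uqcrh chr4:116075072-116075221 (minus), Atp5g2 chr15:102671128-102671277 (minus), Atp5g3 chr2:73911327-73911476 (minus), Ndufaf4 chr4:24897933-24898082 (plus), Atp5h chr11:115419963-115420112 (minus) and Ndufv3 chr17:31519981-31520114 (plus).
Uqcr11: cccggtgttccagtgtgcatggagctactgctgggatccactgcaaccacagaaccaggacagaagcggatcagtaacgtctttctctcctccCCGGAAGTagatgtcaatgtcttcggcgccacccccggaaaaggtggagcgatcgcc
Uqcrh: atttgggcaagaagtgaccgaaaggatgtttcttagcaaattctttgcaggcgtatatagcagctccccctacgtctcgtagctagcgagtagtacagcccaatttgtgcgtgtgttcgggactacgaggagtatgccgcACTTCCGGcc
Atp5g2: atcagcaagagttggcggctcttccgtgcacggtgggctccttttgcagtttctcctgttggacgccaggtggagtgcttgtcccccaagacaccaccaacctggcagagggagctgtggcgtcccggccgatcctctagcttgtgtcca
Atp5g3: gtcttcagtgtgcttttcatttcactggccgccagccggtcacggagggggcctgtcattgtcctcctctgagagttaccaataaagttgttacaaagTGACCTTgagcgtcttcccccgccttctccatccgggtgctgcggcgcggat
Ndufaf4: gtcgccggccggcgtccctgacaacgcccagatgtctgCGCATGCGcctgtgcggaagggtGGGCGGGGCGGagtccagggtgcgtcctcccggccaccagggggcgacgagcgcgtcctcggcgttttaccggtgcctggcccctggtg
Atp5h: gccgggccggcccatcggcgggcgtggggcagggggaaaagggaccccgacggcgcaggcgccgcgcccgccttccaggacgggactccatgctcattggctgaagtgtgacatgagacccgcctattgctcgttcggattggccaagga
Ndufv3: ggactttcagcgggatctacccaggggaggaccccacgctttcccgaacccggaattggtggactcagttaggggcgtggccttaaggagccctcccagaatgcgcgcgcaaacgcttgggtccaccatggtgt

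The ETS letters stood 66 bases before the Uqcr11 start and 11 bases before the Uqcrh start, on opposite strands. The ERR letters lay 52 bases before the Atp5g3 start on the minus strand of the gene, and the NRF1 letters 112 bases before the Ndufaf4 start, followed by 2 GC boxes that share bases. In the parts of these windows that are not printed, the NRF1 letters lay 5 bases before the Uqcr11 start and 41 bases before the Atp5g2 start, the ETS letters 39 bases before the Atp5h start, and the GC box 4 bases before the Atp5g2 start and, for Ndufv3, 139 bases before and 23 bases after the start. Over the 58 member windows, the NRF1 letters were in 15.5% against 1.87% of all 32851 windows and 3.405% of the 9663 windows of tested genes. The YY1 letters were in 18.97% of member windows against 2.75% and 3.75%, and the ERR letters in 10.3% against 4.72% and 3.49%. The ETS letters (5.17% against 3.89% and 6.99%) and the GC box (37.9% against 35.7% and 58.8%) were less common in member windows than in those of tested genes. These are matches of letters and not binding sites.

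The members were expressed at steady levels in all 6 groups. Between the lowest and the highest of the 12 libraries, 60 of 63 members (95.2%) differed by less than 2-fold, as did 42.2% of all tested genes, and 41 members (65.1%) differed by less than 1.5-fold, as did 19.5% of all genes. The median ratio of the highest to the lowest library was 1.43 over members and 2.35 over all genes, which were not matched on level. Complex V was the tightest, with 13 of 14 members under 1.5-fold and a median of 1.32. The 3 members at or above 2-fold were all of complex IV: Cox5b (2.04-fold) and the low-count isoform genes Cox6b2 and Cox4i2.

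**Figure D1:**
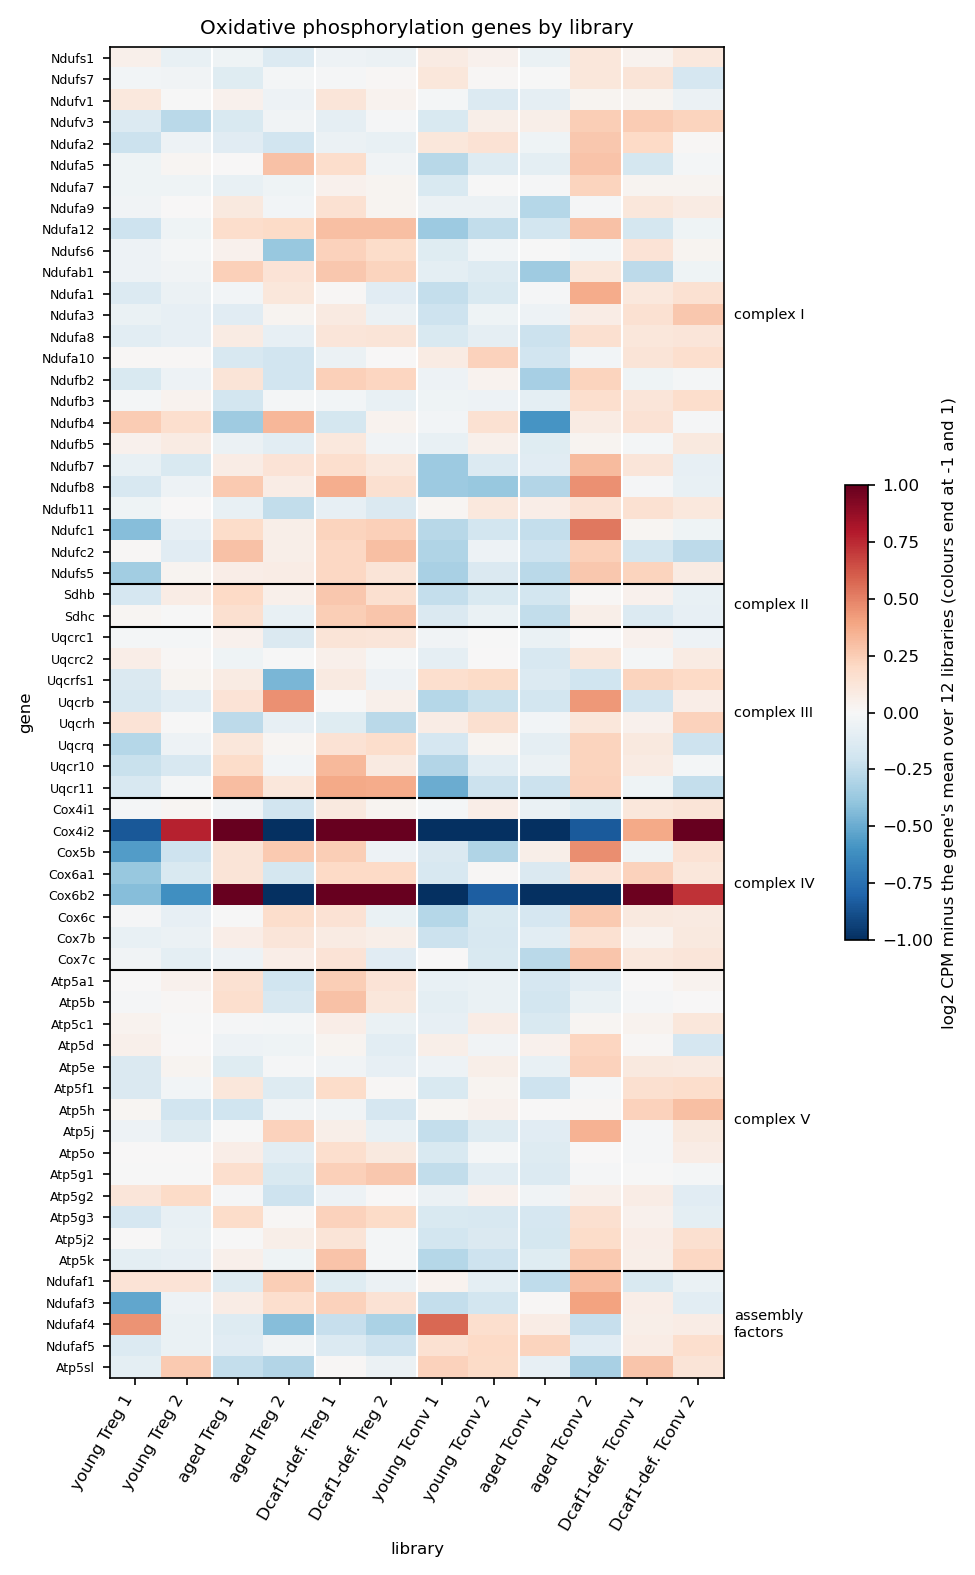
Log2 CPM of the members in each of the 12 libraries (1 complex I gene is not shown), minus the gene's mean over the libraries; rows are genes ordered by complex, columns are libraries, and colours end at -1 and 1. Most cells are pale, Cox4i2 and Cox6b2 reach the ends of the scale, and aged Tconv 2 is darker red than aged Tconv 1 in most rows.

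Levels between genes were compared as CPM per kilobase of the median coding transcript. By complex, the median over members was 243 CPM per kb for complex V, 140 for complex III, 134 for complex IV, 110 for complex II and 74.1 for complex I, while the 5 assembly factors had a median of 17.1. Uqcrh, the hinge protein that binds cytochrome c1, was the highest at 528 CPM per kb as a mean of 12 libraries, followed by Atp5b (495), the catalytic beta subunit of ATP synthase, Cox4i1 (381) and Atp5a1 (350), the alpha subunit. Cox4i2 was the lowest at 0.584 CPM per kb. These levels rest on the annotated lengths: with the longest transcript, Ndufs1 moved from 218 to 53.3 CPM per kb and Uqcrh to 458, which put Atp5b first.

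Among the core subunits of complex I, which carry the NADH site and the iron-sulfur clusters, values in single libraries stayed close together. Ndufs1, the largest iron-sulfur subunit, was at 147 and 134 CPM for young Treg, 138 and 129 for aged Treg, 137 and 136 for Treg labelled Dcaf1-deficient, and 135 to 153 CPM in the 6 Tconv libraries. Ndufv1, which binds NADH, was at 88.5 to 99.7 CPM in Treg and 83.5 to 93.6 CPM in Tconv. Both genes overlapped between cell types and between all 3 conditions. Ndufs7, which carries the last iron-sulfur cluster, ranged from 48.9 to 60.2 CPM over the 12 libraries. None of these 3 core genes was called in any of the 10 comparisons.

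Succinate dehydrogenase, complex II, was represented by its iron-sulfur subunit Sdhb and its membrane anchor Sdhc. Sdhb was at 111 and 132 CPM for young Treg, 144 and 130.1 for aged Treg, 151 and 140.2 for labelled Treg, 106 and 112 for young Tconv, 110.4 and 127 for aged Tconv and 129 and 119 for labelled Tconv. Sdhc was at 89.5 and 88.2, 98.5 and 83.8, and 105 and 107 CPM in the same 3 Treg groups, and at 79.9 and 84.1, 74.4 and 92.1, and 80.2 and 83.4 CPM in the 3 Tconv groups. The labelled Treg libraries held the highest Sdhc values of all 12, and Treg and Tconv overlapped for both genes. In the complex III core, Uqcrc1 was at 165 to 199.8 CPM and Uqcrc2 at 223 to 269.8 CPM over the 12 libraries.

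Treg libraries were compared with Tconv libraries as sorted. Treg markers summed to 2208 to 8310 CPM in the Treg libraries and to 427 to 509 CPM in young and labelled Tconv. In aged Tconv they summed to 2354 and 3511 CPM, within the range of Treg. Some Treg libraries also held many macrophage and B cell transcripts, as given above. The part of these in the fold changes was not tested. As a mean over the 3 conditions, 3 members were lower in Treg by less than 1.2-fold and none was higher: Ndufb11, a membrane-arm subunit of complex I, Ndufv3, an accessory subunit beside the NADH-oxidising module, and Atp5h, subunit d of the stalk that holds the ATP synthase head in place. Ndufb11 (chromosome X, 20615326 to 20617619 in GENCODE M21 on GRCm38, minus strand) was at 110.2 and 113 CPM for young Treg, 107 and 95.6 for aged Treg and 107 and 102 for labelled Treg, against 115 and 122, 118 and 125, and 126 and 122 CPM in the matching Tconv groups. Every Treg library lay below every Tconv library. The log2 fold change was -0.20 (SE 0.05, edgeR adjusted p 0.0301).

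Atp5h (chromosome 11, 115415689 to 115419962, minus strand) was at 214 and 186, 184 and 206, and 207 and 189 CPM in young, aged and labelled Treg, and at 214 and 218, 212 and 214, and 248 and 260.2 CPM in the matching Tconv. Young Treg 1 lay among the wild-type Tconv libraries, the other 5 Treg libraries lay below all Tconv libraries, and labelled Tconv was the highest. The log2 fold change was -0.20 (SE 0.06, edgeR adjusted p 0.0429). Ndufv3 (chromosome 17, 31520115 to 31531331, plus strand) was at 66.0 and 60.1, 65.3 and 70.7, and 68.1 and 72.1 CPM in Treg, and at 65.1 and 75.7, 75.8 and 86.2, and 86.6 and 84.6 CPM in Tconv. Young Tconv 1 lay among the Treg libraries and the other 5 Tconv libraries lay above them. Its log2 fold change was -0.23 (SE 0.07, edgeR adjusted p 0.0418).

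**Figure D2:**
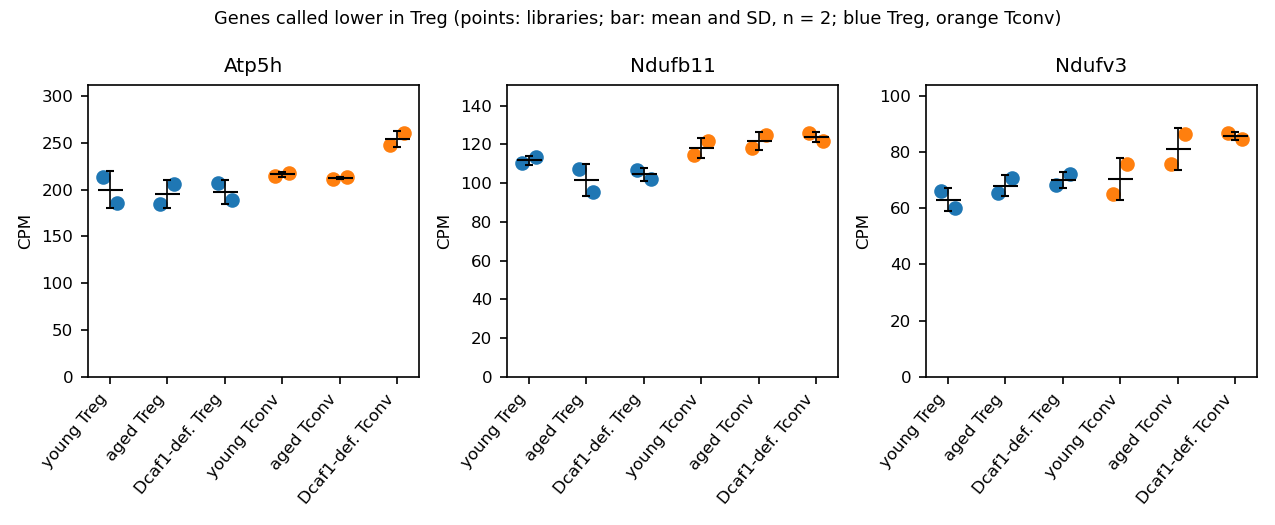
CPM of Atp5h, Ndufb11 and Ndufv3 in the 6 groups; points are libraries, black marks are the mean and SD (n = 2), blue is Treg and orange Tconv. For Ndufb11 all 6 Treg points, 95.6 to 113 CPM, sit below all 6 Tconv points, 115 to 126 CPM.

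Per complex, the outer log2 fold changes were Ndufab1 (0.25) and Ndufv3 in complex I, Uqcr11 (0.32) and Uqcrh (-0.20) in complex III, Cox4i2 (2.63, from few counts) and Cox6a1 (-0.06) in complex IV, Atp5g1 (0.17) and Atp5h in complex V, and Ndufaf1 (0.07) and Ndufaf5 (-0.24) among assembly factors. The share of members called, 3 of 63 lower and 0 higher, stood beside 11% of all genes lower and 11.5% higher in the same comparison, so it was below the background in both directions. The members' median log2 fold change was 0.02 and that of all genes -0.002, and 40 members lay on the higher and 23 on the lower side, where 49.8% and 50.2% of all genes did. At an unadjusted p under 0.05, 9 members were higher and 7 lower, against 20.4% and 18.9% of all genes. DESeq2 called 9 higher and 5 lower, against 19.1% and 14.8% of all genes: Sdhb, Sdhc, Uqcr11, Ndufa12, Ndufab1, Ndufc2, Atp5g1, Cox4i2 and Cox6b2 higher, and Uqcrh, Ndufa2 and the 3 genes above lower. Ndufa2 was the other member with every Treg library (57.0 to 63.9 CPM) below every Tconv library (64.2 to 79.6 CPM), a separation seen in 2 members and in 2.3% of all genes, and in the other direction in 0 members and 1.89% of all genes. Its edgeR adjusted p was 0.0573.

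The complex III pair whose promoters are printed above differed in direction. Uqcr11, a small accessory subunit, was at 33.1 and 36.5, 45.9 and 40.1, and 48.1 and 47.9 CPM in young, aged and labelled Treg, and at 26.2 and 32.0, 31.9 and 43.6, and 35.9 and 31.3 CPM in the matching Tconv (0.32 on the log2 scale, SE 0.11, edgeR adjusted p 0.0625). Uqcrh was at 274 and 248.6, 208 and 235, and 228 and 207 CPM in Treg, and at 263 and 279, 245 and 269, and 257 and 292 CPM in Tconv (-0.20, SE 0.07, edgeR adjusted p 0.0603). Both pairs of ranges overlapped: young Treg lay among the Tconv libraries for Uqcrh, and aged Tconv 2 and labelled Tconv 1 lay among the Treg libraries for Uqcr11. The 2 complex II genes had log2 fold changes of 0.20 for Sdhb and 0.21 for Sdhc, with edgeR adjusted p of 0.0657 and 0.0685.

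These calls were near the threshold. Over 20 other settings, Atp5h was called in 6 (adjusted p 0.00878 to 0.432), Ndufb11 in 8 (0.015 to 0.262) and Ndufv3 in 8 (0.0107 to 0.459), and all kept a lower value in Treg; without young Treg 2 and aged Treg 1 the Atp5h fold change was -0.12. No member was called without the low-count filter or without any 1 of young Treg 2, the labelled Treg libraries, the young Tconv libraries or the labelled Tconv libraries, while 9 were called without aged Treg 2, 10 without aged Tconv 2 and 19 (14 higher, 5 lower) without both, in fits that called 30.9%, 27.5% and 42.9% of all genes. With a term for the title tag none was called; Treg minus Tconv was -0.03 for Ndufb11 in L4 (young) and -0.39 in L3 (aged), the 2 tags that hold both cell types, -0.10 and -0.05 for Atp5h, and -0.05 and -0.29 for Ndufv3, all log2 differences. GENCODE holds 3 pseudogenes with transcripts of at least 95% identity over at least 50% of the length for Atp5h and 1 for Ndufb11, so reads may be split between copies. In all, 10 members have such a near-identical copy. The others are Ndufs5, Ndufs6, Uqcrb, Cox5b, Atp5c1, Atp5f1, Atp5k and Atp5o, and the same limit holds for their counts. Ndufb11 is X-linked: Xist was above 1000 CPM for aged Treg 2, labelled Treg 2, aged Tconv 2 and both labelled Tconv libraries and under 3 CPM in the others, so sex differs between libraries, and its part in the result was not tested.

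In the young groups alone, edgeR called 0 of 63 members between Treg and Tconv, where it called 0.495% of genes higher and 0.305% lower. No member had an unadjusted p under 0.05, against 7.99% higher and 6.3% lower among all genes, and DESeq2 called 0 members where it called 4.11% of genes higher and 3.01% lower. The median log2 fold change was 0.05 over members and 0.02 over all genes, with 42 members higher. Every young Treg library was above both young Tconv libraries for 26 members and below for 8, beside 24.4% and 24.9% of all genes. By complex the outermost values were Ndufb8 (0.27) and Ndufa2 (-0.26) in complex I, Uqcr11 (0.26) and Uqcrfs1 (-0.23) in complex III, Cox6a1 (-0.19) at the low end of complex IV, and Atp5g1 (0.17) and Atp5h (-0.11) in complex V.

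Aged Treg were compared with young Treg, the comparison closest to the study's question. No member was called by edgeR, which called 0% of all genes in this comparison, and DESeq2 called 0 members where it called 4.68% of genes higher and 3.23% lower. At an unadjusted p under 0.05, Cox5b was higher and Atp5g2 and Atp5sl were lower, so 1 member was higher and 2 were lower, against 8.87% and 9% of all genes. The median log2 fold change was 0.04 over members and 0.02 over all genes, with 36 members higher and 27 lower, beside 52.4% and 47.6% of all genes. Every aged library was above both young libraries for 19 members and below for 11, beside 20.2% and 22.4% of all genes.

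Cox5b, a zinc-binding subunit at the matrix face of complex IV (chromosome 1, 36691449 to 36693681, plus strand), had the widest range among well-counted members. It was at 17.5 and 22.3 CPM for young Treg, 28.1 and 31.0 for aged Treg, 30.5 and 24.9 for labelled Treg, 23.3 and 20.8 for young Tconv, 26.9 and 35.5 for aged Tconv and 25.03 and 28.4 for labelled Tconv. Both aged and both labelled libraries exceeded both young ones in Treg and again in Tconv. The log2 fold change was 0.57 in aged against young Treg (SE 0.21, edgeR adjusted p 0.225) and 0.50 in aged against young Tconv (SE 0.21, edgeR adjusted p 0.158), neither past the threshold, and a gene of near-identical sequence makes its count uncertain.

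The other outer values in aged Treg were Ndufc1 (0.37) and Ndufa10 (-0.19) in complex I, Sdhb (0.17) and Sdhc (0.04) in complex II, Uqcrb (0.44) and Uqcrh (-0.24) in complex III, Cox6b2 (1.74) and Cox4i1 (-0.11) in complex IV, Atp5g3 (0.22) and Atp5g2 (-0.27) in complex V, and Ndufaf3 (0.39) and Ndufaf4 (-0.49) among assembly factors, all log2 fold changes without a call. Aged Treg 1 and 2 stood on opposite sides of young Treg for several abundant genes. Atp5a1 was at 901 and 927 CPM for young Treg and 996 and 781 for aged Treg, and Atp5b at 936 and 953 for the young and 1061 and 846 for the aged. The spread between the aged libraries thus covered the young values for both genes of the ATP synthase head.

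The 3 genes that encode the same c subunit of the ATP synthase rotor ring differed in their balance between groups, a pattern singled out after their values were seen. Atp5g2 was at 212 and 223 CPM for young Treg, 193 and 169 for aged Treg and 188 and 196 for labelled Treg. Atp5g3 was at 164 and 174 CPM for young Treg, 209 and 186 for aged Treg and 216 and 210.2 for labelled Treg. Both young Treg libraries were above the other 4 Treg libraries for Atp5g2 and below them for Atp5g3.

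Set against each other within a library, which takes out library scaling, the Atp5g3 to Atp5g2 ratio of CPM was 0.773 and 0.784 for young Treg, 1.08 and 1.10 for aged Treg and 1.15 and 1.07 for labelled Treg. In Tconv it was 0.883 and 0.822 for the young, 0.861 and 1.02 for the aged and 0.924 and 0.951 for the labelled libraries. Summed macrophage markers were 140 and 4122 CPM for young Treg, 10116 and 604 for aged Treg and 11953 and 14862 for labelled Treg, and their part in the ratio was not tested. The single-gene tests gave -0.27 (SE 0.10, edgeR adjusted p 0.239) for Atp5g2 in aged against young Treg and 0.33 (SE 0.12, edgeR adjusted p 0.162) for Atp5g3 in labelled against young Treg, and neither passed. Atp5g1 was at 70.7 to 101 CPM over the 12 libraries.

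**Figure D3:**
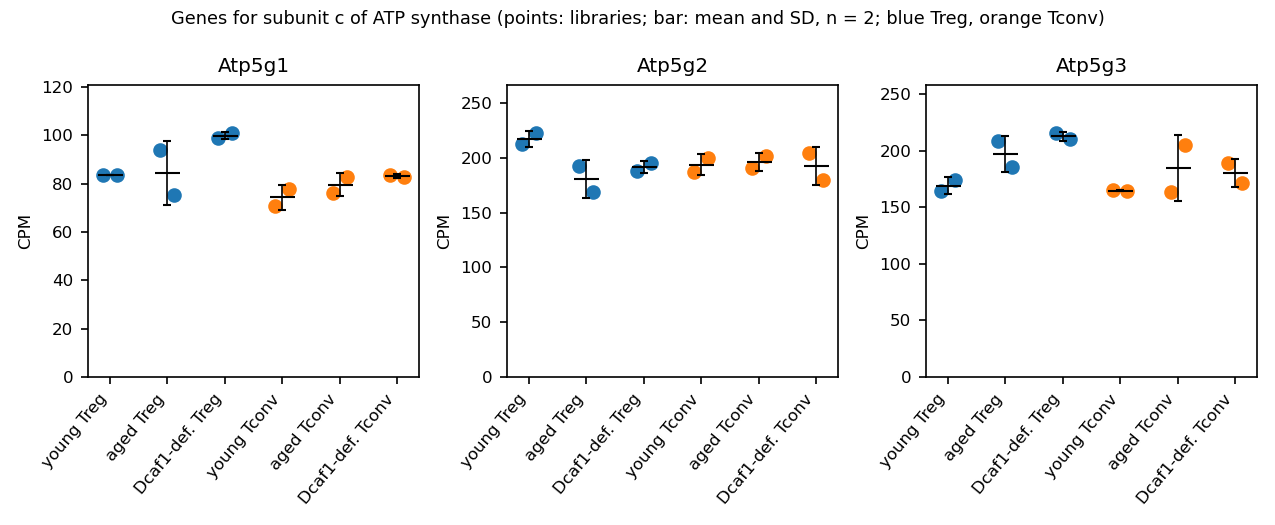
CPM of Atp5g1, Atp5g2 and Atp5g3 in the 6 groups; points are libraries, black marks are the mean and SD (n = 2), blue is Treg and orange Tconv. In young Treg, Atp5g2 (212 and 223 CPM) lies above Atp5g3 (164 and 174 CPM), and in aged and labelled Treg the order is not kept.

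Per transcript length, Atp5g2 made up 54.4% ± 0.128 (SD, n = 2) of the 3 c-ring genes in young Treg, 46.4% ± 0.154 for aged Treg and 45.7% ± 1.06 for labelled Treg, and Atp5g3 40.2% ± 0.312, 48.1% ± 0.510 and 48.2% ± 1.12. In Tconv the Atp5g2 share was 52.4% ± 1.07, 50.2% ± 2.70 and 49.96% ± 0.670. The small share of Atp5g1 depends on its annotated length, from 3.34% with the longest to 16.7% with the shortest transcript, as means of 12 libraries.

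Aged Tconv were compared with young Tconv. No member was called by edgeR, where 6.38% of all genes were higher and 2.47% lower. At an unadjusted p under 0.05, 4 members were higher (Cox5b, Ndufa1, Ndufb7 and Ndufb8) and 2 lower (Atp5sl and Ndufa10), against 16.9% and 11.3% of all genes, and DESeq2 called 0 members higher and the last 2 lower, beside 12.9% and 8.58% of all genes. The 4 higher members all had their highest library in aged Tconv 2. Ndufa1 is X-linked, at 49.4 and 64.4 CPM in aged Tconv 1 and 2, where Xist was at 2.94 and 1263 CPM, and the part of sex was not tested. Ndufa10, a membrane-arm subunit of complex I, was at 105 and 116 CPM for young Tconv and 86.8 and 97.3 for aged Tconv, with no overlap (-0.26, SE 0.09, edgeR adjusted p 0.102). Atp5sl, named for likeness to an ATP synthase subunit and known as a complex I assembly factor, was at 85.4 and 83.3 CPM for the young and 68.7 and 58.3 for the aged (-0.41, SE 0.14, edgeR adjusted p 0.101).

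The members' median log2 fold change was 0.09 for aged Tconv and that of all genes -0.002, with 42 members higher and 21 lower, beside 49.5% and 50.1% of all genes. Both aged libraries were above both young ones for 15 members and below for 7, beside 29.9% and 29.1% of all genes. The median rested on 1 library. Without aged Tconv 2 the median was -0.03 and no member was called; without aged Tconv 1 it was 0.21 and 10 members were called, all higher, in a fit that called 23.96% of all genes. Aged Tconv 2 exceeded aged Tconv 1 in 56 of 63 members, by a median of 0.27 on the log2 scale, while the median over all genes was -0.004. It held the highest value of all 12 libraries for 22 members, and for 18.4% of all genes, and aged Tconv 1 held the lowest for 15 members, and for 5.80% of all genes. Within the tag L5, aged Tconv 1 lay below young Tconv 2 by a median of -0.06 with 18 of 63 members higher. Over all genes the median was -0.01, with 47.9% higher.

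The outer log2 fold changes of aged against young Tconv were Ndufb8 (0.50) and Ndufb4 (-0.28) in complex I, Sdhb (0.12) and Sdhc (0.02) in complex II, Uqcrb (0.41) and Uqcrfs1 (-0.34) in complex III, Cox6b2 (-0.43) at the low end of complex IV, Atp5k (0.33) and Atp5a1 (-0.06) in complex V, and Ndufaf3 (0.43) and Ndufaf4 (-0.46) among assembly factors. Leaving out the low-count genes Cox4i2 and Cox6b2, the 4 widest gaps between the aged replicates were those of Ndufc1, Ndufb8, Ndufb4 and Uqcrb, accessory subunits of complexes I and III. Ndufb8 was at 55.8 and 55.3 CPM for young Tconv and at 58.6 and 98.4 for aged Tconv. Uqcrb was at 61.2 and 63.7 CPM for the young and 65.7 and 101 for the aged, and Ndufb4 at 20.9 and 23.7 for the young and 14.1 and 22.6 for the aged. The ATP synthase head hardly differed between the aged libraries (Atp5a1 799.5 and 837 CPM), and 3 assembly factors went the other way (Ndufaf4 37.9 and 30.7 CPM, Atp5sl 68.7 and 58.3, and Ndufaf5 22.1 and 17.5). Members under 1000 bases of transcript had a median difference of 0.31 (45 members) and longer ones 0.14 (18 members), with a Spearman rho of -0.25 across 63 members, which share 2 libraries and are not replicates. The 8 cycling-cell markers summed to 122 CPM for aged Tconv 1 and 439 for aged Tconv 2, and Foxp3 differed between them as given above. Xist was at 2.94 CPM for aged Tconv 1 and 1263 for aged Tconv 2, so sex differed, and their title tags were L5 and L3. Between 2 libraries these cannot be told apart, and their part in the difference was not tested.

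**Figure D4:**
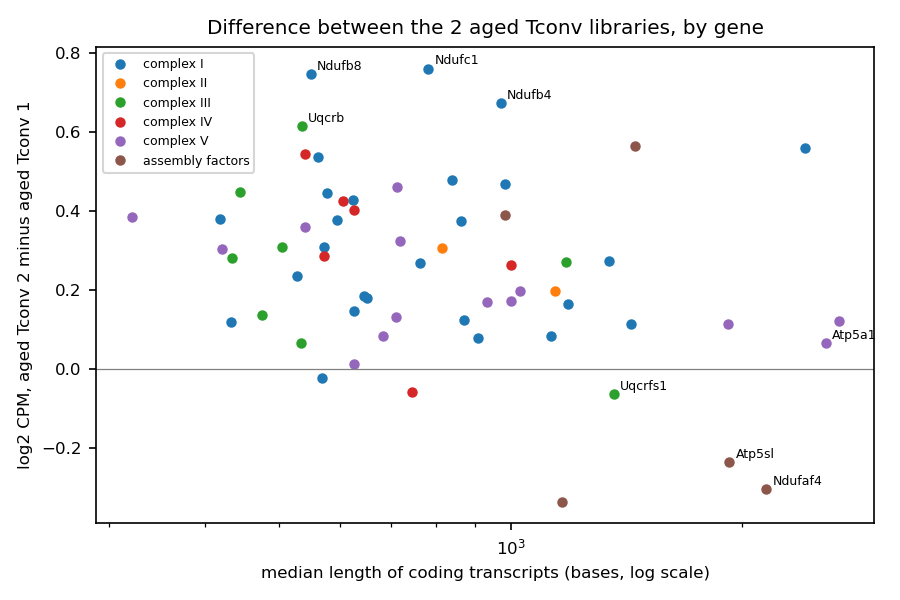
Difference in log2 CPM between aged Tconv 2 and aged Tconv 1 for each member other than Cox4i2 and Cox6b2, against the median length of its coding transcripts in bases (log axis), coloured by complex. Most points lie above 0, up to 0.76 for Ndufc1, and 3 of the 5 assembly factors lie below.

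Libraries labelled Dcaf1-deficient were compared with the young wild type of the same age. In Treg, edgeR called 0 of 63 members and 0% of all genes, while DESeq2 called 2 members higher, Cox6a1 and Cox6b2, against 6.87% of genes higher and 6.95% lower. The median log2 fold change was 0.11 over members and -0.01 over all genes, and 47 members were higher, where 49.4% of all genes were. Both labelled libraries were above both young ones for 36 members and below for 8, beside 35.2% and 36.9% of all genes. At an unadjusted p under 0.05, 7 members were higher (Atp5g3, Cox5b, Cox6a1, Cox6b2, Ndufa12, Uqcr10 and Uqcr11) and 1 was lower (Uqcrh), against 10.6% and 14.3% of all genes.

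All 8 complex IV members were on the higher side with a median of 0.30, but without the low-count genes Cox4i2 and Cox6b2 the median of the other 6 was 0.11, beside 0.11 over all members. Cox6a1, the broadly expressed form of an accessory subunit of complex IV, was at 77.7 and 91.2 CPM for young Treg, 111 and 89.7 for aged Treg, 116 and 116 for labelled Treg, 90.7 and 102 for young Tconv, 91.5 and 112 for aged Tconv and 119 and 109.7 for labelled Tconv. Both labelled Treg libraries exceeded both young Treg libraries (0.46, SE 0.15, edgeR adjusted p 0.144). Other outer values were Ndufc1 (0.48) and Ndufb4 (-0.28) in complex I, Sdhb (0.26) and Sdhc (0.25) in complex II, Uqcr11 (0.46) and Uqcrh (-0.26) in complex III, Cox4i1 (0.07) in complex IV, Atp5g3 (0.33) and Atp5g2 (-0.18) in complex V, and Ndufaf3 (0.45) and Ndufaf4 (-0.49) among assembly factors. Macrophage markers summed to 140 and 4122 CPM for young Treg and to 11953 and 14862 CPM for labelled Treg. T cell markers summed to 8037 and 5446 against 3664 and 3357 CPM, and B cell markers to 65.9 and 2353 against 2131 and 2288 CPM. Erythroid markers summed to 19.7 and 1585 against 5356 and 12087 CPM, and cycling-cell markers to 135 and 322 against 1178 and 1006 CPM. The part of these in the higher values was not tested.

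In Tconv labelled Dcaf1-deficient, edgeR called 0 members against young Tconv and 0% of all genes, and DESeq2 called 0 members where it called 1.78% of genes higher and 0.868% lower. The median log2 fold change was 0.11 over members and -0.001 over all genes. In all, 50 members were higher and 13 lower, where 49.7% and 50.1% of all genes were, and both labelled libraries were above both young ones for 37 members and below for 1, beside 34.2% and 32.7% of all genes. In the tag L5 alone, the labelled libraries exceeded young Tconv 2 in 47 of 63 members by a median of 0.09, beside 49.7% of all genes and a median of -0.0015. This uses the same labelled libraries with 1 young library, so it is not separate from the values above. All 8 members of complex III (median 0.05) and all 8 of complex IV (median 0.27, and 0.25 over 6 without Cox4i2 and Cox6b2) were on the higher side.

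At an unadjusted p under 0.05, 5 members were higher in labelled Tconv and 0 lower, against 5.76% and 4.29% of all genes. Ndufa3, a small membrane-arm subunit of complex I, was at 63.6 and 71.2 CPM for young Tconv and 81.8 and 88.7 for labelled Tconv, with no overlap (0.34, SE 0.11, edgeR adjusted p 0.428). Atp5h, given above, had 214 and 218 against 248 and 260.2 CPM (0.23, SE 0.10, edgeR adjusted p 0.495). The others were Atp5k (0.38), Cox7b (0.25) and Ndufv3 (0.28), and Cox7b, at 105 and 109 CPM for the young and 125 and 130.1 for the labelled libraries, is X-linked. Outer values were Ndufs5 (0.38) and Ndufs7 (-0.07) in complex I, Uqcr10 (0.23) and Uqcrc1 (0.02) in complex III, Cox4i1 (0.10) at the low end of complex IV, Atp5k and Atp5d (-0.09) in complex V, and Ndufaf3 (0.20) and Ndufaf4 (-0.32) among assembly factors. Erythroid markers summed to 6.66 and 116 CPM for young Tconv and 1509 and 1504 for labelled Tconv, cycling-cell markers to 81.4 and 161 against 613 and 651 CPM, and Xist was above 1000 CPM in both labelled libraries and under 3 CPM in both young ones, so that these and the label cannot be told apart.

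**Figure D5:**
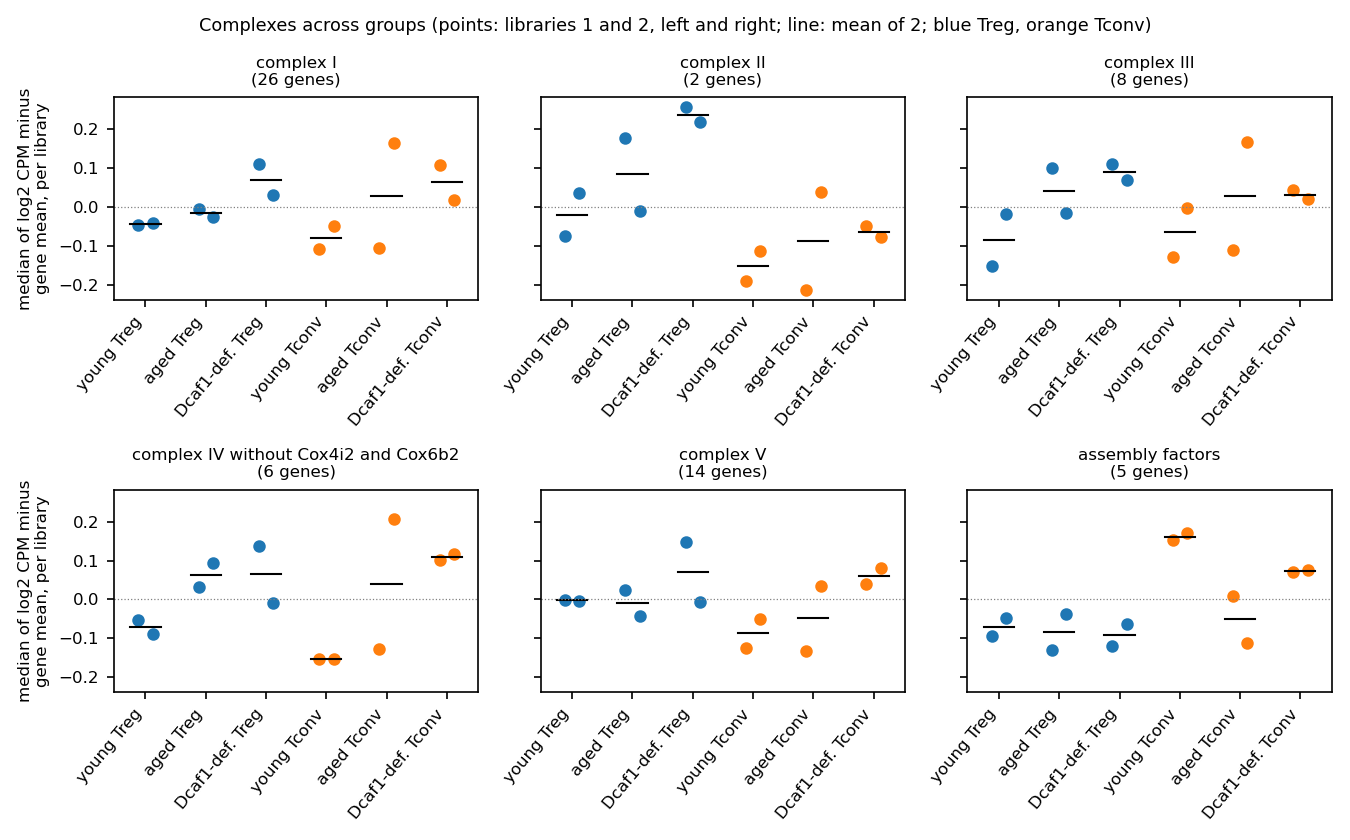
For each complex, the median over its genes of log2 CPM minus the gene's mean over 12 libraries; each point is a library (1 left, 2 right), the line is the mean of 2, blue is Treg and orange Tconv, and Cox4i2 and Cox6b2 are left out of complex IV. In the 5 complexes, the young Tconv means lie below 0 and the means of the labelled groups lie above those of the young groups of their cell type. The aged Tconv libraries are far apart. In the last panel, for the assembly factors, the labelled means lie below the young ones in both cell types.

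Labelled and aged libraries of the same cell type were also set side by side, with the same libraries as in the comparisons with young mice, so these values are not independent of those. Against aged Treg, labelled Treg had 0 members called by edgeR beside 0% of all genes, and DESeq2 called 0 members where it called 0.0107% of genes higher and 0.687% lower. Of the 63 members 51 were higher, where 50.2% of all genes were, with a median of 0.09 against 0.002 over all genes, and Ndufs6 (0.36) alone had an unadjusted p under 0.05, where 1.12% of genes were higher and 6.28% lower. Ndufs6, a zinc-binding accessory subunit of complex I, was at 35.4 and 26.3 CPM for aged Treg and 40.3 and 39.0 for labelled Treg. The outer values were Ndufs6 and Ndufb4 (-0.10) in complex I, Sdhc (0.21) and Sdhb (0.09) in complex II, Uqcrfs1 (0.18) and Uqcrb (-0.28) in complex III, Cox6b2 (1.29) and Cox5b (-0.09) in complex IV, Atp5g1 (0.24) and Atp5j (-0.13) in complex V, and Atp5sl (0.24) and Ndufaf1 (-0.16) among assembly factors. Without aged Treg 1, 3 members were called here, and without young Treg 2 and aged Treg 1 there were 5, all higher, in fits that called 10.1% and 17.4% of all genes.

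Against aged Tconv, labelled Tconv had 0 members called by edgeR, beside 0.695% of genes higher and 2.38% lower. DESeq2 called Atp5h and Ndufa10 higher, against 5.47% of genes higher and 9.34% lower. At an unadjusted p under 0.05, 6 members were higher (Atp5h, Atp5sl, Cox4i1, Cox6b2, Ndufa10 and Uqcrfs1) and 0 lower, against 8.24% and 14.1% of all genes. Ndufa10 was at 86.8 and 97.3 CPM for the aged and 108 and 111 for the labelled libraries, and Uqcrfs1, the Rieske iron-sulfur protein of complex III, at 93.3 and 89.3 against 119.6 and 117 CPM. The labelled and the young Tconv libraries lay together for both genes, and the aged ones below. The outer values were Ndufb4 (0.28) and Ndufc2 (-0.26) in complex I, Uqcrfs1 and Uqcrb (-0.22) in complex III, Cox5b (-0.22) at the low end of complex IV, Atp5f1 (0.28) and Atp5d (-0.21) in complex V, and Atp5sl (0.40) and Ndufaf3 (-0.23) among assembly factors. The median of 0.05 over members again depended on the aged replicate, at 0.17 without aged Tconv 2 and -0.07 without aged Tconv 1.

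The difference between cell types in the response to age or to the Dcaf1 label was tested as an interaction. No member was called by edgeR in either, beside 0% of all genes in both, and none had an unadjusted p under 0.05, where for age 2.13% of genes were positive and 4.35% negative, and for the label 1.21% and 1.53%. DESeq2 called 0 members in either, where it called 0.38% of genes positive and 1.12% negative for age, and 0.0105% and 0% for the label. The members' medians were -0.04 for age and -0.03 for the label, and those of all genes -0.03 and -0.04. The outer members of the age interaction were Ndufab1 (0.22) and Ndufa1 (-0.25) in complex I, and those of the label interaction Ndufb2 (0.35) and Ndufb4 (-0.28) in complex I, Uqcrq (0.30) and Uqcrh (-0.28) in complex III, and Atp5g3 (0.20) and Atp5h (-0.25) in complex V. The age response of Atp5g2 was lower in Treg than in Tconv by -0.28 (SE 0.14, edgeR adjusted p 0.822).

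Cox4i2 and Cox6b2, tissue isoforms of complex IV subunits known from lung and from testis, were near the floor of counting in wild-type Tconv. Cox6b2 was at 0.753 and 0.649 CPM for young Treg, 4.35 and 0.322 for aged Treg, 4.82 and 6.72 for labelled Treg, 0.235 and 0.550 for young Tconv, 0.389 and 0.190 for aged Tconv and 2.15 and 1.78 for labelled Tconv. Cox4i2 had 31.1, 33.2 and 25.1 estimated counts in aged Treg 1 and the labelled Treg libraries, 10.9 for young Treg 2, 7 and 13 for labelled Tconv, and 0 to 2 in the other 6. Both genes were highest in aged Treg 1 and the labelled Treg libraries, where macrophage markers summed to 10116, 11953 and 14862 CPM and erythroid markers to 4549, 5356 and 12087 CPM. The remaining libraries had erythroid sums of 6.66 to 1585 CPM. The part of these cells in the 2 genes was not tested.

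The 5 assembly factors, needed to build complex I and not part of it, were followed separately. Ndufaf4 was at 49.2 and 34.5 CPM for young Treg, 32.9 and 26.8 for aged Treg, 30.7 and 28.9 for labelled Treg, 53.5 and 40.5 for young Tconv, 37.9 and 30.7 for aged Tconv and 37.6 and 38.0 for labelled Tconv. Young libraries were the highest of each cell type without overlap, and no comparison passed. The median log2 fold change of the 5 was below that of the 58 subunits in 7 of the 8 comparisons between groups, for example -0.12 and 0.13 in labelled against young Treg, and above it in labelled against aged Tconv (0.06 and 0.04). These comparisons share libraries and are not separate observations, and the difference was not tested.

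Other genes of mitochondrial respiration, from lists drawn up with earlier results known, gave a few calls. In Treg against Tconv over the 3 conditions, 1 of 21 carrier, channel and import genes was higher and 0 lower, 2 of 15 electron carrier genes higher and 1 lower, 0 of 12 Krebs cycle genes higher and 2 lower, 0 of 26 further assembly factors higher and 2 lower, and 1 of 15 regulators higher and 3 lower. Together these were 4 higher (4.49%) and 8 lower (8.99%) of 89 genes, below the shares of 11.5% and 11% over all genes. Sqrdl, which oxidises sulfide and feeds electrons to quinone, was higher by 0.65 on the log2 scale (SE 0.09, edgeR adjusted p 0.00462). Atpif1, the inhibitor of ATP hydrolysis by complex V, was higher by 0.73 (SE 0.22, edgeR adjusted p 0.0459). The cell types overlapped for Atpif1, at 32.3 to 80.6 CPM in Treg and 16.1 to 69.0 CPM in Tconv. Aged Treg 2 was at 45.1 CPM and aged Tconv 2 at 69.0 CPM. The labelled Treg libraries were the highest, at 74.7 and 80.6 CPM, and the part of other cells was not tested. Cox10, which makes haem A for complex IV, fell by 0.44 (SE 0.08, edgeR adjusted p 0.0123), and Mdh2, the malate dehydrogenase, fell by 0.20. Of the regulators Myc was higher by 0.85 and Polg2, a subunit of the mitochondrial DNA polymerase, fell by 0.61.

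In aged against young Tconv the same lists gave 1 call higher and 4 lower among 89 genes, beside 6.38% of all genes higher and 2.47% lower. Cox17, the copper chaperone of complex IV, was at 26.5 and 30.7 CPM for young Tconv and 40.2 and 62.7 for aged Tconv, with no overlap (0.85, SE 0.21, edgeR adjusted p 0.0465). Cox10 was at 55.9 and 48.8 CPM for the young and 39.4 and 31.8 for the aged (-0.56, SE 0.14, edgeR adjusted p 0.0491). Pdha1, a subunit of pyruvate dehydrogenase, fell from 275 and 264 to 187 and 178 CPM (-0.56, SE 0.12, edgeR adjusted p 0.0320), and Cox16 and Myc fell by 0.53 and 0.91. None of these genes was called in the other comparisons apart from those of Treg with Tconv over the 3 conditions.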

How the data were processed

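The authors deposited estimated counts per gene, made with Salmon 0.9.1 on mm10 per the submitters' processing notes and summed to genes per the file headers, and a log2-like table normalised with DESeq2, whose transform is not given in the sources used here. No sample column was left unused. The transcript annotation is not given in the sources used here.

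Estimated counts, of which 23.5% of values were whole, were rounded. Of 11486 genes with a count, edgeR's low-count filter removed 1991. TMM scaling and edgeR 4.0.16 (R 4.3.3) quasi-likelihood tests were fitted once over 12 libraries with 6 group means (6 residual degrees of freedom), and p-values were adjusted by Benjamini-Hochberg over 9495 genes, with 0.05 as the threshold. CPM are TMM-scaled; log2 CPM used a prior count of 2. The script was tested on simulated data with larger changes than those of the called members. That test did not cover differences of their size. Library totals are given with the report. Lengths and positions came from GENCODE M21 and promoter windows from RefSeq.

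Genes named were those called, the highest and lowest fold change of each complex, the defining subunits and up to 2 called genes per further mitochondrial list; others were named after their values were seen. One gene that this rule names is not reported here. Members and lists were chosen with earlier results of these data known. Alternatives were DESeq2 1.42.0, limma 3.58.1 on the deposited log2 values, RLE size factors, no filter, the 6 libraries of one cell type alone, a tag term, a replicate block, each library left out, the L3 libraries or young Treg 2 and aged Treg 1 left out, and other transcript lengths.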

Additional observations from a re-analysis of the deposited data

How the results depend on the processing

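No result changed direction as a called value. In Treg against Tconv over the 3 conditions, where edgeR called 3 members, 0 were called without the low-count filter, 14 by DESeq2, 0 with a term for the tag and 19 without the tag L3, and leaving out 1 library gave 0 to 10. In aged against young Tconv (0 called), DESeq2 called 2, beside 12.9% of all genes higher and 8.58% lower. Members were also called without young Treg 2 and aged Treg 1 and in some fits with 1 library left out. Not all counts and shares of all genes for these fits are given here. The members' median in aged against young Tconv ran from -0.032 to 0.207, and was -0.032 without the tag L3. In labelled against young Treg, DESeq2 called 2, the fit without the tag L3 6 and that without young Treg 2 and aged Treg 1 2. Labelled against aged Treg gave 5 without those 2 libraries and 0 to 3 with 1 left out. For labelled against aged Treg, the shares of all genes called without aged Treg 1 and without those 2 libraries are given above. For labelled against young Treg, the shares in the fits with libraries left out are not given here. The 6 and 2 members called there therefore cannot be weighed against all genes. Labelled against aged Tconv gave 2 by DESeq2, beside 5.47% of genes higher and 9.34% lower. Members were also called without young Treg 2 and aged Treg 1 and in some fits with 1 library left out. Counts and shares of all genes for these fits are not given here, and nothing is drawn from them. The median of labelled against aged Tconv ran from -0.069 to 0.17, with 0.17 without the tag L3. The median of the age interaction ran from -0.18 to 0.085, and was 0.11 without the tag L3. With the longest and the shortest transcripts, the share of Atp5g1 among the c-ring genes was 3.34% and 16.7%, and that of Atp5g3 47.9% and 30.7%. The cause was not tested. With the replicate number as a block, 2 members were called in Treg against Tconv, Atp5h being lost, and 0 in each other comparison. The shares of all genes called with the block are not given here. Deviations of the replicate 1 libraries from their group's mean correlated between groups from -0.66 to 0.68, so the numbers were not taken as pairs. Where a group is left with 1 library, it is assumed to vary like the others. With 2 libraries a group, small differences cannot be resolved.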
